A study of Mus musculus with 20 samples.

Results

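Antral follicles of 5 mice that had drunk water with iodoacetic acid at 500 mg/L were compared with those of 5 mice given water alone in the same experiment. These are the mice whose count columns carry the prefix of experiment 1: 10 of the 20 mice of the study, and 18169 of its 39253 listed genes, those that the authors marked as kept. All were adult female CD-1 mice, an outbred stock, exposed for 35 days from day 40 of life and 75 days old at collection in diestrus. Follicles of 220 to 400 µm were dissected with forceps and 30 to 40 of them from 1 animal made 1 library, so nothing was pooled across mice and each value below belongs to 1 animal. The exposed mice are replicates 1 to 5 of their dose and their controls are replicates 6 to 10, the control animals of experiment 1. The other 10 mice came from experiment 2, a month apart from experiment 1: controls 1 to 5 and mice 1 to 5 at 10 mg/L, another dose, which appear here only beside the genes of experiment 1.

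An antral follicle is a fluid-filled sphere in which granulosa cells surround an oocyte and theca cells form the outer, vascular wall. Theca cells turn cholesterol into androgens under luteinising hormone, and granulosa cells convert these to estradiol under follicle-stimulating hormone. Iodoacetic acid, a by-product of water disinfection, alkylates thiol groups. Its classical target is the glycolytic enzyme Gapdh, and the thioredoxin and glutathione systems guard the cell's thiols.

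Library totals of estimated counts, in million-count units, ran from 42.3 to 50.3 in the controls and from 43.1 to 67.5 in the exposed mice. Expression is given in CPM, counts-per-million on library sizes scaled by trimmed means (TMM), with the SD over mice. A difference is the log2 ratio of 500 mg/L to control, with its 95% interval from edgeR's quasi-likelihood model. The common biological coefficient of variation between mice of a group, 1 value fitted to all tested genes together, was 25.3%. All 18 listed granulosa markers, all 14 theca markers and all 18 oocyte markers were among the tested genes. Granulosa and oocyte genes of follicles were present in each library: the granulosa regulator Foxl2 was at 220.5 to 472 CPM and the egg-coat gene Zp3 at 38.2 to 83.9 CPM across the 10 mice. The antral stage is taken from the label and was not tested by these genes. On the first principal component, with 29% of the variance, the groups overlapped. Control 7 (42.5) and control 9 (22.6) lay at its high end and control 10 (−25.5) at its low end, and exposed mouse 5 lay apart on the second component (35), which held 14.2%. Beside the median of each of the 24 lists described stand the lowest and the highest median found when 1 mouse was left out, with that mouse.

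The comparison asked which follicle mRNAs differed at 500 mg/L when month of experiment is held fixed. No gene passed edgeR's test at an adjusted p of 0.05 over the 18169 genes (0%, smallest adjusted p = 0.942, smallest unadjusted p = 0.000123). At an unadjusted p under 0.05 there were 884 genes (4.87%), 414 higher (2.28%) and 470 lower (2.59%) at 500 mg/L. In 75 genes (0.413%) each exposed mouse lay above all 5 controls, and in 96 genes (0.528%) each lay below. The median log2 difference over all genes was −0.00072, and 49.8% of genes were positive. The median half-width of the 95% interval was 0.34 on the log2 scale, and 0.24 among the 13182 genes with at least 2 CPM. Of those, 97.7% had a half-width under 1, so an interval of theirs centred on 0 would not reach a doubling. DESeq2 on the same libraries called 19 genes, 11 higher and 8 lower, 12 of them among the 24 named next, and limma-voom and limma-trend called 0. Without exposed mouse 3, edgeR called 1 gene, Gm52481, which is described with the low-level genes below.

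**Figure D1:**
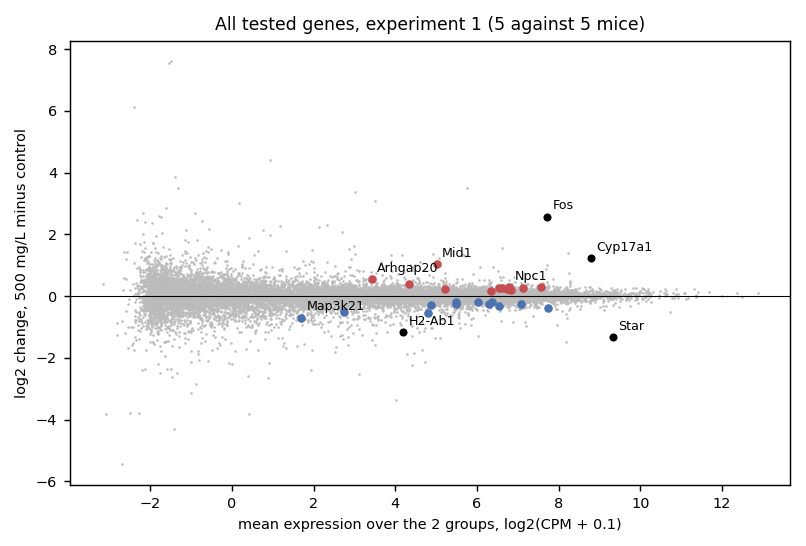
Each point is 1 of the 18169 tested genes: mean CPM of both groups on a log2 axis against the log2 difference, 500 mg/L minus control (5 against 5 mice). Red and blue points are the 12 higher and 12 lower genes named by rule, black points are 4 further genes of the text; most genes with at least 2 CPM lie close to 0, and none passed the test.

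For description, 12 genes per direction were named by rule: the smallest unadjusted p among genes with a mean of at least 2 CPM whose groups did not overlap, leaving out predicted genes. Their groups are apart because they were chosen so, which is no support for them. In edgeR's fit each of the 24 had an adjusted p of 0.942.

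Mid1, an X-linked ligase on microtubules that marks the catalytic subunit of the phosphatase PP2A for degradation, was at 18.4, 26.9, 24.7, 18 and 17.7 CPM in controls 6 to 10. In exposed mice 1 to 5 it was at 41.0, 43.7, 28.0, 64.3 and 39.2 CPM. The lowest exposed value, in mouse 3, lay just above the highest control, in control 7, and exposed mouse 4 was the highest. The means were 21.1 ± 4.33 CPM and 43.2 ± 13.2 CPM (SD, n = 5 each), a log2 difference of 1.04 (95% interval 0.58 to 1.49), or 2.05-fold. Of the 8 genes of the list of Mid1 and PP2A partners, 4 were positive with a median of −0.00021 (−0.012 without exposed mouse 5 to 0.044 without control 7) beside −0.00072 over all genes, and Mid1 was the single one at an unadjusted p under 0.05. Igbp1, the alpha4 protein through which Mid1 reaches the phosphatase, differed by 0.10 (−0.11 to 0.32; 0.045 without exposed mouse 2 to 0.17 without control 10) and the scaffold subunit Ppp2r1b by −0.10 (−0.24 to 0.037; −0.060 without exposed mouse 1).

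Slc25a36, a mitochondrial carrier of pyrimidine nucleotides, was at 133, 120.01, 131, 127 and 128 CPM in the controls and at 155, 147, 146, 147 and 164 CPM in the exposed mice. Each group was narrow, and the log2 difference was 0.25 (0.13 to 0.36). Ankrd16, an ankyrin-repeat partner of alanyl-tRNA synthetase that limits mistranslation, was at 18.4, 16.8, 19.0, 15 and 17.2 CPM against 22.9, 20.7, 25, 22.7 and 21.5 CPM, a difference of 0.39 (0.20 to 0.57). Arhgap20, a GTPase-activating protein, was at 8.81, 9.74, 8.92, 7.74 and 8.30 CPM against 15.6, 11.2, 11.6, 11.0 and 13.7 CPM. Exposed mice 1 and 5 were highest for Arhgap20, and the difference was 0.54 (0.27 to 0.81).

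Med1, the Mediator subunit that binds nuclear hormone receptors, was at 97.0, 99.4, 101, 93.0 and 97.5 CPM in the controls and 105, 122, 116, 115 and 114 CPM in the exposed mice (0.23, 0.12 to 0.34). Rsf1, a subunit of a nucleosome-spacing remodeller, was at 92.6, 87.4, 83.3, 90.3 and 93.4 CPM against 106, 107, 99.5, 115 and 103 CPM (0.25, 0.13 to 0.37). The rule requires each exposed mouse to lie above every control, and mouse 1 for Med1 and mouse 3 for Rsf1 did so only narrowly. The bromodomain protein Baz2b differed by 0.25 (0.12 to 0.39), the histone H3 demethylase Kdm3a by 0.17 (0.070 to 0.26) and the histone H2A deubiquitinase Mysm1 by 0.21 (0.086 to 0.34).

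Npc1, which exports cholesterol from lysosomes, was at 100.4, 107, 97.1, 93.9 and 98.1 CPM in the controls and at 114, 112, 130.1, 138 and 116 CPM in the exposed mice, with exposed mice 3 and 4 highest (0.30, 0.15 to 0.45). It was the single member of the list of cholesterol synthesis and uptake at an unadjusted p under 0.05: 9 of 28 members were positive, with a median of −0.032 (−0.11 without exposed mouse 4 to 0.080 without control 7). Its partner in the lysosome, Npc2, differed by −0.037 (p = 0.565). This p is an unadjusted edgeR value, as is every p given without another name in the text. The remaining higher genes were Tmem131, which takes part in collagen secretion (0.30, 0.14 to 0.45), and the cell-surface glycoprotein Mpzl1 (0.19, 0.072 to 0.31).

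**Figure D2:**
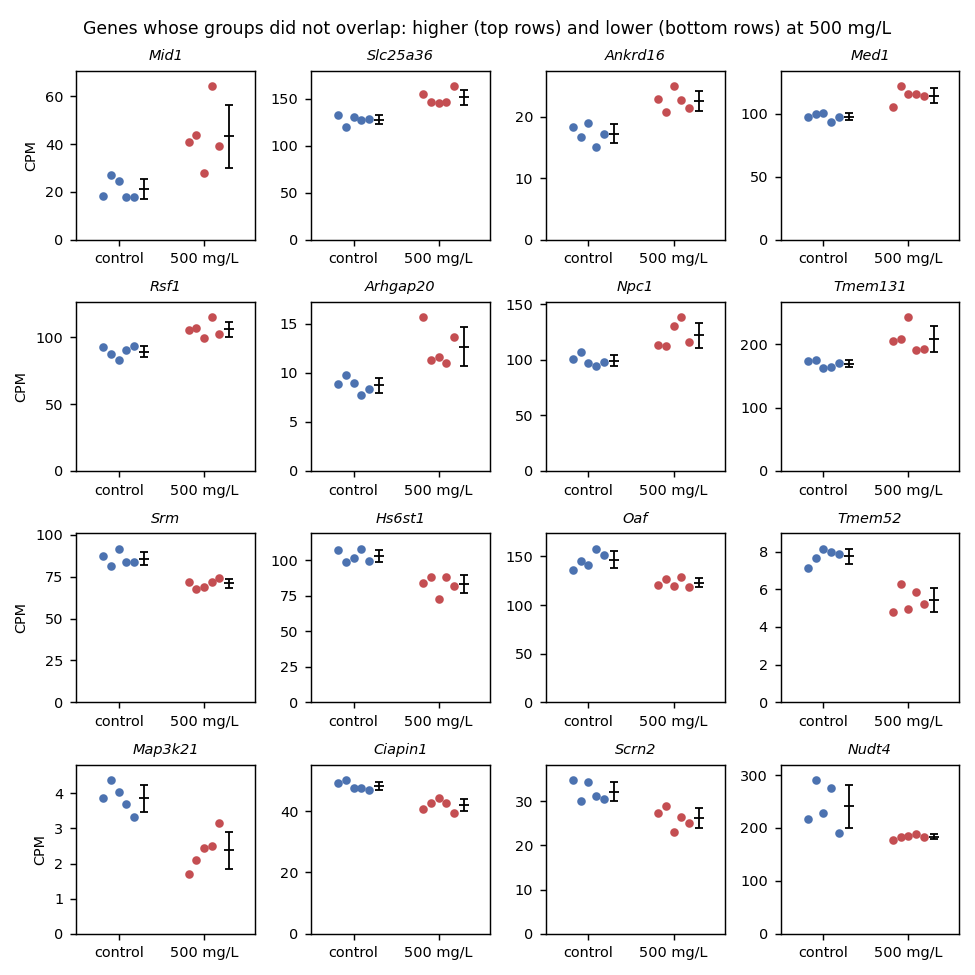
CPM of each mouse (points) in the 5 controls (blue) and 5 mice at 500 mg/L (red) for the first 8 higher genes and the first 8 lower genes of the rule, with mean and SD to the right of each group; axes start at 0. Mid1 has the largest ratio, and in most of the other panels the groups are narrow and a small step apart, which the rule favours.

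In the lower direction, Srm had the smallest p. It encodes spermidine synthase, which makes spermidine from putrescine, and it was at 87.6, 81.5, 91.6, 83.7 and 83.8 CPM in the controls and 71.5, 67.9, 69.1, 71.9 and 74.3 CPM in the exposed mice. The groups were 85.7 ± 3.98 CPM and 71.0 ± 2.52 CPM (SD, n = 5 each), a log2 difference of −0.27 (−0.38 to −0.16), or a ratio of 0.828. Adi1, an enzyme of the methionine salvage pathway that recycles the by-product of spermidine synthesis, was at 52.7, 46.9, 48.9, 49.7 and 45.6 CPM against 44.1, 42.7, 43.2, 37.5 and 37.8 CPM (−0.25, −0.40 to −0.098). That both genes were lower in each exposed mouse than in any control is a condition of the rule that named them.

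Hs6st1, which adds 6-O-sulfate to heparan sulfate chains, was at 107, 98.8, 101, 108 and 99.4 CPM in the controls and 83.9, 87.9, 72.7, 88.2 and 81.7 CPM in the exposed mice, with exposed mouse 3 the lowest (−0.31, −0.45 to −0.18). Map3k21, a mixed-lineage kinase, was at 3.86, 4.37, 4.03, 3.70 and 3.33 CPM against 1.70, 2.11, 2.44, 2.49 and 3.14 CPM (−0.70, −1.09 to −0.31). Nudt4, which removes phosphate from diphosphoinositol polyphosphates, was at 218, 290.4, 228, 276 and 191 CPM against 176, 183, 186, 188 and 183 CPM (−0.39, −0.62 to −0.16). For Nudt4 the controls were spread widely, with controls 7 and 9 highest, and the exposed mice were close together.

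Tomm6, a small subunit of the protein import channel of the outer membrane, was at 70.0, 70.3, 73.3, 63.1 and 70.2 CPM in the controls and 59.9, 61.6, 61.2, 61.1 and 61.4 CPM in the exposed mice (−0.18, −0.30 to −0.074). Ciapin1, needed to build iron-sulfur clusters in the cytosol, differed by −0.20 (−0.32 to −0.087) and the riboflavin kinase Rfk, which makes the flavin cofactor FMN, by −0.21 (−0.33 to −0.083). In the list of nuclear genes of oxidative phosphorylation, 9 of 32 were positive with a median of −0.016 (−0.043 without control 9 to −0.0083 without control 10), and 2 were lower at an unadjusted p under 0.05 (over all genes 2.59%). These were Ndufa4 (−0.17, −0.28 to −0.053) and Ndufa1 (−0.19, −0.35 to −0.021), the latter a subunit of respiratory complex I. The last lower genes were Dok7, an adaptor of the receptor kinase MuSK (−0.56, −0.90 to −0.22), and Oaf (−0.26, −0.38 to −0.14), Tmem52 (−0.52, −0.77 to −0.26) and Scrn2 (−0.30, −0.47 to −0.13).

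The higher and the lower genes of the 24 differed in a feature that the rule did not use. The longest annotated transcript had a median length of 6227 bases among the 12 higher genes and 2504 bases among the 12 lower ones, against 3466 bases over the genes with at least 2 CPM. Over 12780 such genes (97.0% of 13182) the log2 difference and this length had a Spearman correlation of 0.15, a description across genes, which are not independent. The difference in mean log2 CPM between the 10% of genes with the longest and the 10% with the shortest transcripts was taken per mouse, relative to the mean of all 10. It was −0.032, 0.073, −0.137, 0.017 and −0.083 in controls 6 to 10. In exposed mice 1 to 5 it was 0.106, −0.001, −0.042, 0.099 and 0. Exposed mice 1 and 4 lay above every control, and the others lay within the control range. This measure was added after values had been seen. Its part in the 24 genes, and in the list medians close to 0, was not tested.

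The 24 genes can be read in mice that did not choose them, although at another dose. At 10 mg/L in experiment 2, where 1222 genes (6.73%) were at an unadjusted p under 0.05 and 0 passed the adjusted test (edgeR, smallest adjusted p = 0.294; the other tools were not run there), 10 of the 12 higher genes and 6 of the 12 lower genes had the same sign. Over all genes 51.8% did. The median of the 12 higher genes went from 0.25 at 500 mg/L to 0.054 at 10 mg/L, and that of the 12 lower genes from −0.29 to 0.024. Mid1 was the single one of the 24 at an unadjusted p under 0.05 there, with a difference of 0.98 (0.64 to 1.32, adjusted p = 0.294). Srm differed by −0.20, Slc25a36 by 0.087, Npc1 by −0.19 and Map3k21 by 0.26. A test of the difference between the effects of the doses called 0 genes over the 18169 (edgeR, smallest adjusted p = 0.753, 984 at an unadjusted p under 0.05).

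**Figure D3:**
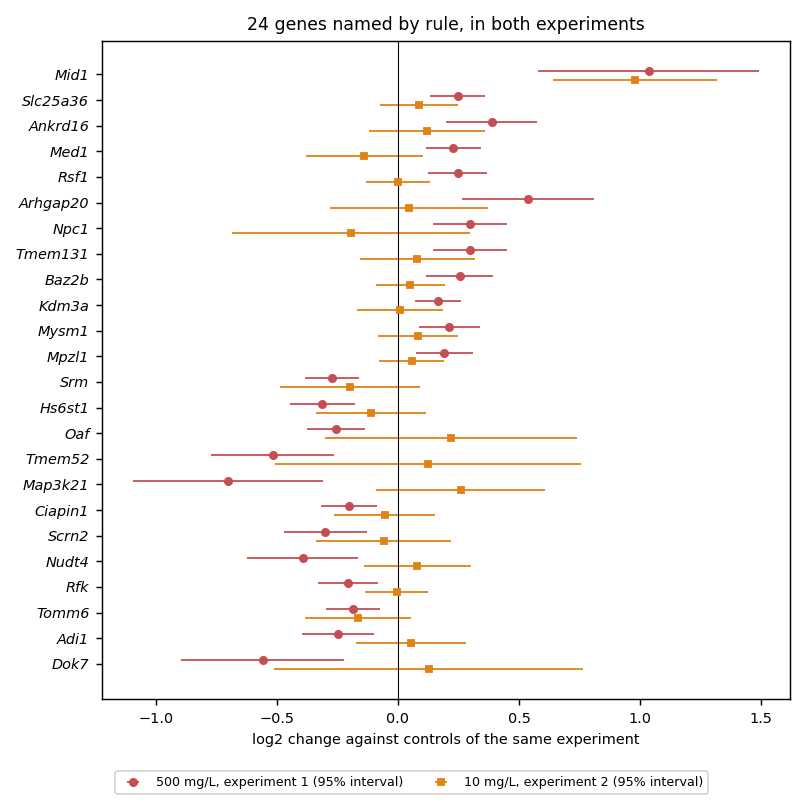
Log2 difference from the controls of the same experiment with its 95% interval for the 24 genes of the rule: red circles for 500 mg/L in experiment 1, in which they were chosen, and orange squares for 10 mg/L in experiment 2. Mid1 has nearly the same value in both, and the intervals of the other 23 genes at 10 mg/L include 0.

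The authors' deposited table compares 500 mg/L with the 10 controls of both experiments. It lists 229 of 18169 genes at an adjusted p under 0.05, 140 higher and 89 lower. Among them are 9 of the 24 genes. The authors' comparison holds the same exposed mice and the controls of experiment 1, the mice in which the 24 genes were chosen. The count of 9 is therefore no independent support for them. In the authors' deposited table Mid1 has a fold of 1.99 (the authors' adjusted p = 0.0164) and Srm a signed fold of −1.25 (0.0159).

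Tmsb15b1, a beta-thymosin that binds actin monomers, lay below the 2 CPM of the naming rule and was fixed by name. It was at 0.619, 0.582, 0.376, 0.370 and 0.690 CPM in the controls and 0.972, 3.65, 1.52, 1.80 and 1.75 CPM in the exposed mice (1.88, 1.09 to 2.66), with exposed mouse 2 the highest (1.51 without it). It shares near-identical sequence with Tmsb15b2 and Tmsb15l, so how reads were divided among them is uncertain: these differed by 0.25 (−0.39 to 0.89) and 0.44 (−0.087 to 0.96), and by 0.028 and 0.22 without exposed mouse 2. The actin-binding Tmsb4x differed by −0.13 (−0.41 to 0.15; −0.20 without control 6 to −0.053 without control 7). The median of the 5 tested beta-thymosins was 0.25 (0.028 without exposed mouse 2 to 0.41 without control 10).

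The predicted genes Gm52481 and Gm12586, which the naming rule leaves out, were chosen after their values were seen. Gm52481 was at 0.192, 0.194, 0.0836, 0.0693 and 0.264 CPM in the controls and at 4.79, 2.98, 0.230, 6.97 and 2.37 CPM in the exposed mice: mouse 3 lay within the control range and the other 4 far above it. Gm12586 was at 0.662, 0.797, 0.627, 0.508 and 0.345 CPM in the controls and at 0.773, 2.56, 4.99, 2.41 and 2.32 CPM in the exposed mice, where mouse 1 lay within the control range. DESeq2 called both, and edgeR called Gm52481 once exposed mouse 3 was left out.

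Steroid synthesis was read next, from the 15 tested enzymes and carriers and from the 14 theca markers. Over all genes 49.8% were positive, 2.28% were higher and 2.59% were lower at an unadjusted p under 0.05. These shares are the background of every list count. Members of both lists lay on either side of 0. Of the steroid genes 6 were positive, 1 was higher and 3 were lower at an unadjusted p under 0.05, and the median was −0.060 (−0.19 without exposed mouse 4 to 0.013 without control 6). Of the theca markers 9 were positive, 3 were higher and 1 was lower, with a median of 0.066 (0.032 without control 10 to 0.16 without control 9).

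Star, which carries cholesterol into the mitochondrion, was at 346, 2519, 661, 899 and 199.6 CPM in the controls and 430.5, 216, 299.7, 422 and 476 CPM in the exposed mice. Control 7 was far above the rest, and without it the log2 difference went from −1.33 (−2.62 to −0.034, p = 0.0453) to −0.51 (p = 0.225). Cyp11a1, which cleaves the cholesterol side chain, was at 1601, 3941, 1472, 1913 and 1033 CPM against 2387, 1189.7, 1097, 907 and 1393 CPM, with control 7 again the highest (−0.51, −1.31 to 0.28; −0.80 without exposed mouse 1 to −0.11 without control 7). Hsd3b1, the next step toward progesterone, did not separate the groups (0.0064, −0.35 to 0.37), and its sign turned under several settings.

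Cyp17a1, the theca enzyme that makes androgens, was higher. It was at 301, 268, 369, 135 and 249.8 CPM in the controls and at 1192, 321, 593, 601 and 403 CPM in the exposed mice. Exposed mouse 1 was the highest, control 9 the lowest, and exposed mouse 2 lay within the control range. The difference was 1.23 (0.45 to 2.01, p = 0.00525, edgeR adjusted p = 0.942) and 0.86 without exposed mouse 1. Against the controls of experiment 2, a month apart, the same exposed mice differed by −0.16 (SE 0.52). The theca hormone Insl3 was at 4.42, 3.68, 6.62, 3.47 and 5.56 CPM against 7.35, 6.36, 5.75, 5.46 and 9.54 CPM, with exposed mice 2, 3 and 4 within the control range (0.54, 0.054 to 1.02; −0.45 against the controls of both experiments), and the lipid-binding Fabp3 differed by 0.41 (0.017 to 0.80). Among the other theca markers, the Hedgehog response genes Ptch1 and Gli1 differed by 0.23 (p = 0.237) and −0.020 (p = 0.95).

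Cyp19a1, the granulosa aromatase that makes estradiol, varied widely in both groups, at 42.7, 26.3, 167, 109 and 27.9 CPM in the controls and 98.8, 45.5, 162, 219 and 51.6 CPM in the exposed mice (0.63, −0.71 to 1.97; 0.26 without exposed mouse 4 to 1.17 without control 8). Fdxr, which feeds electrons to the mitochondrial enzymes, differed by −0.33 (−0.64 to −0.014; −0.22 without control 7) and the outer-membrane protein Tspo by −0.45 (−0.89 to −0.013; −0.20 without control 7). In experiment 2 the values at 10 mg/L had the opposite sign for Star (1.80), Cyp11a1 (0.96) and Cyp17a1 (−0.82). The difference between the effects of the doses was −3.12 for Star and 2.05 for Cyp17a1, and neither passed (edgeR adjusted p = 0.81 and 0.834).

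Luteal markers were highest in controls 7 and 9, the controls with the most Star. Their score, the mean log2 CPM of the list relative to the control mean, was −0.57, 0.95, −0.17, 0.44 and −0.64 in controls 6 to 10 and 0.070, −0.56, −0.19, 0.15 and −0.060 in exposed mice 1 to 5. The median difference of the 15 tested of 16 luteal genes was −0.33 (−0.38 without control 6 to 0.047 without control 7), and 4 were positive. Their summed level ran from 1206 to 5972 CPM in the controls and from 1382 to 2554 CPM in the exposed mice. Abcg1, a cholesterol exporter, was the one member at an unadjusted p under 0.05 (−0.35, −0.68 to −0.021), and the prostaglandin receptor Ptgfr went from −0.96 to −0.22 without control 7. The part of luteal RNA in the values of Star, Cyp11a1, Tspo and Fdxr was not tested.

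Of receptors for gonadotropins, steroids and insulin 6 of 13 were positive and 2 were at an unadjusted p under 0.05 (over all genes 4.87%), with a median of −0.0041 (−0.082 without exposed mouse 4 to 0.077 without control 7). The estrogen receptor Esr1, expressed in theca and interstitial cells, was at 37.2, 48.0, 33.9, 39.3 and 45.1 CPM in the controls and 35.9, 37.8, 29.4, 29.2 and 30.0 CPM in the exposed mice, with mice 3, 4 and 5 below every control and mice 1 and 2 within their range (−0.33, −0.57 to −0.078). The granulosa receptor Esr2 differed by −0.0041 (−0.50 to 0.49), with a sign that depended on the scaling. The insulin receptor Insr was at 126, 130.1, 123, 108 and 136 CPM against 158, 146, 141, 141 and 128 CPM, with exposed mouse 5 within the control range (0.19, 0.031 to 0.36) and its relative Igf1r differed by 0.17 (−0.00079 to 0.33). The gonadotropin receptors Fshr and Lhcgr differed by 0.34 (−0.19 to 0.87) and 0.32 (−0.33 to 0.97). With 1 mouse left out, Fshr ran from 0.21 without control 7 to 0.55 without control 10, and Lhcgr from 0.13 without exposed mouse 1 to 0.51 without exposed mouse 2.

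Granulosa markers were evenly divided, with 9 of 18 positive, 0 at an unadjusted p under 0.05 and a median of 0.034 (−0.058 without exposed mouse 2 to 0.13 without exposed mouse 5). Amh, the hormone of small growing follicles, was at 634, 289, 426, 381 and 364 CPM in the controls and 205, 166, 351, 364 and 486 CPM in the exposed mice, where mouse 5 was the highest and mouse 2 the lowest (−0.41, −1.06 to 0.23; −0.63 without exposed mouse 5 to −0.21 without control 6). Of the oocyte markers 17 of 18 were positive and 0 were at an unadjusted p under 0.05, with a median of 0.16 (−0.0019 without exposed mouse 5 to 0.27 without exposed mouse 2). The maternal-effect gene Nlrp5 differed by 0.41 (−0.018 to 0.83; 0.22 without exposed mouse 5). The receptor Kit differed by 0.31 (−0.026 to 0.64), and by −0.065 against the controls of both experiments. Their summed level ran from 536 to 849 CPM in the controls and from 597 to 1132 CPM in the exposed mice. In such bulk samples fewer cells of a type and less RNA per cell cannot be told apart.

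**Figure D4:**
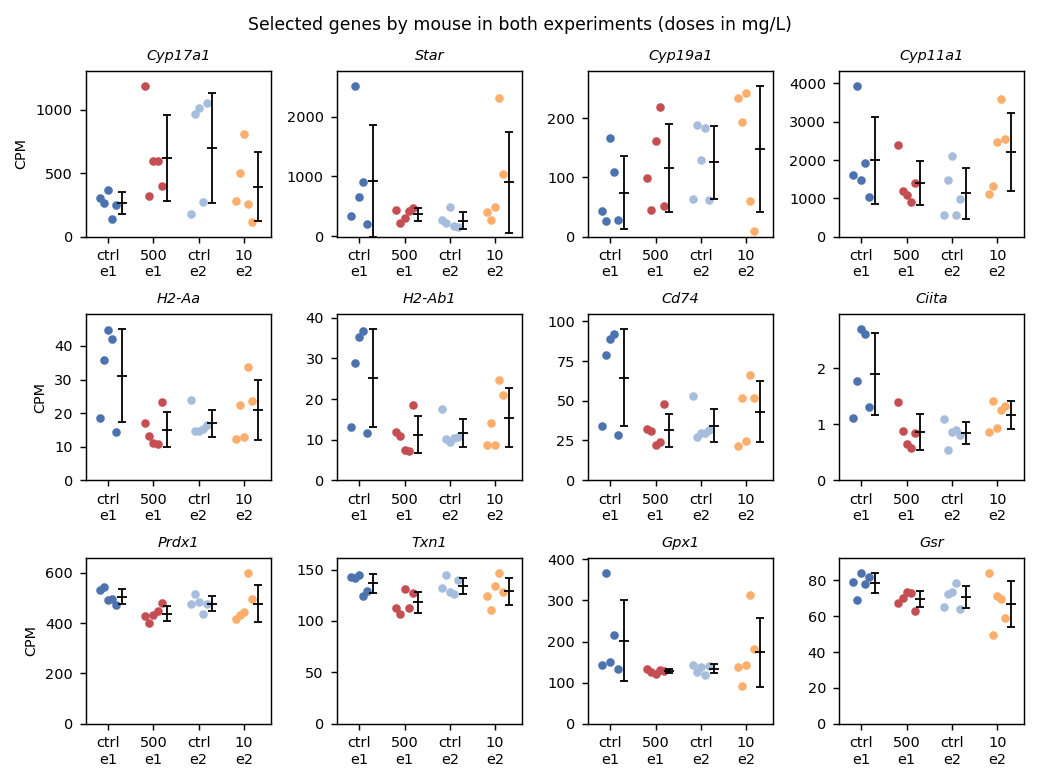
CPM of each mouse for steroid genes (top), MHC class II genes (middle) and thiol-protecting enzymes (bottom) in the controls and 500 mg/L mice of experiment 1 and the controls and 10 mg/L mice of experiment 2, with mean and SD beside each group. Each experiment is scaled on its own; control 7 is far above the other controls for Star, Cyp11a1 and Gpx1, and 3 of the 5 controls of experiment 1 hold the high values of the MHC class II genes.

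The thiol-protecting systems were read because the compound reacts with thiols. Of the 23 thioredoxin, peroxiredoxin and related enzymes 2 were positive and 21 negative, with a median of −0.058 (−0.068 without exposed mouse 2 to −0.051 without control 10). Of these, 0 passed the adjusted test and 2 were lower at an unadjusted p under 0.05 (over all genes 2.59%). Prdx1, an abundant peroxidase, was at 530.2, 542, 490.4, 494 and 470.1 CPM in the controls and 428, 402, 432, 448 and 479 CPM in the exposed mice. Exposed mouse 5 lay within the control range and the other 4 below every control (−0.21, −0.36 to −0.059). Txn1, thioredoxin itself, was at 143, 142, 145, 124 and 129 CPM against 113, 107, 131, 113 and 127 CPM (−0.21, −0.37 to −0.052), with exposed mice 3 and 5 within the control range. The mitochondrial dismutase Sod2 differed by −0.18 (−0.37 to 0.015), Prdx5 by −0.11 (−0.23 to 0.010) and the reductase Txnrd1 by −0.029 (p = 0.646).

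Of 32 genes of glutathione synthesis and transfer, 12 were positive and 4 were lower at an unadjusted p under 0.05 (over all genes 2.59%), with a median of −0.042 (−0.068 without exposed mouse 2 to −0.018 without exposed mouse 1). Gsr, which regenerates reduced glutathione, was at 79.4, 69.1, 83.9, 78.1 and 82.2 CPM in the controls and 67.5, 70.1, 73.7, 73.1 and 62.8 CPM in the exposed mice (−0.18, −0.33 to −0.030; −0.22 without control 7). Control 7 was the lowest control for Gsr and overlapped exposed mice 2, 3 and 4. Gpx1, a glutathione peroxidase, was at 143, 367, 149.6, 217 and 133 CPM against 133, 125, 121, 131 and 129 CPM. Controls 7 and 9 were high for Gpx1, control 10 and exposed mouse 1 were almost level, and the difference went from −0.66 (−1.22 to −0.11) to −0.33 without control 7. Mgst2, a microsomal transferase, was at 7.49, 9.63, 2.26, 10.7 and 4.42 CPM against 2.63, 2.65, 3.33, 3.07 and 4.03 CPM, with control 8 below the exposed mice (−1.13, −1.93 to −0.34). The transferase Gsta1 rested on control 7 alone, at 3.42 CPM, and went from −1.68 to −0.40 without it. Controls 7 and 9 were also those with the highest luteal scores, and the part of luteal RNA in these glutathione genes was not tested.

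Target genes of NRF2, the transcription factor that answers thiol-reactive compounds, gave 8 positive of 23, 2 lower and 0 higher at an unadjusted p under 0.05 (over all genes 2.59% lower and 2.28% higher), and a median of −0.061 (−0.10 without exposed mouse 1 to −0.019 without control 7). Nqo1, a quinone reductase and a standard NRF2 readout, was at 4.03, 3.92, 3.26, 3.65 and 3.19 CPM in the controls and 3.27, 1.82, 2.25, 3.32 and 2.71 CPM in the exposed mice, with mice 1 and 4 within the control range (−0.43, −0.85 to −0.017). The heme oxygenase Hmox1 differed by −0.17 (p = 0.254), the cystine transporter Slc7a11 by 0.26 (p = 0.198) and the sulfiredoxin Srxn1 by −0.36 (p = 0.396).

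Glycolysis genes gave 17 positive of 20, 0 at an unadjusted p under 0.05 and a median of 0.045 (−0.0029 without exposed mouse 4 to 0.090 without exposed mouse 1). Gapdh mRNA was at 1568, 1264, 1456, 1235 and 1505 CPM in the controls and 1509, 1583, 1399, 1448 and 1222 CPM in the exposed mice (0.027, −0.19 to 0.24; −0.019 without control 9 to 0.076 without exposed mouse 5). The groups overlapped throughout, and the interval lay far inside a doubling in either direction. The enzyme's activity was not measured.

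For DNA damage, the p53 targets gave 14 positive of 22 with 2 higher at an unadjusted p under 0.05 (over all genes 2.28%) and a median of 0.059 (−0.018 without exposed mouse 4 to 0.12 without exposed mouse 2). The ribonucleotide reductase subunit Rrm2b was at 29.5, 28.6, 28.5, 30.9 and 27.5 CPM in the controls and 32.2, 31.3, 34.1, 30.6 and 32.0 CPM in the exposed mice, with mouse 4 within the control range (0.14, 0.016 to 0.27), and Trp53inp1, a cofactor of p53, differed by 0.21 (0.016 to 0.40; 0.13 without exposed mouse 1). Cdkn1a, the cell-cycle inhibitor most used as a p53 readout, was at 11.0, 13.7, 14.3, 13.0 and 7.75 CPM against 23.2, 5.74, 11.5, 20.7 and 9.84 CPM, with exposed mice 1 and 4 above the controls and mouse 2 below them (0.25, −0.51 to 1.00). The difference of Cdkn1a rested on single mice: it was −0.000069 without exposed mouse 1, 0.072 without exposed mouse 4 and −0.12 against the controls of both experiments. Of 34 DNA repair genes 17 were positive and 0 were at an unadjusted p under 0.05 (median 0.017; −0.032 without control 7 to 0.064 without exposed mouse 1).

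In the BCL2 family and its caspases, 6 of 23 were positive and 3 were lower at an unadjusted p under 0.05 (over all genes 2.59%), with a median of −0.030 (−0.064 without exposed mouse 3 to −0.0042 without control 8). All 3 promote death by the mitochondrial route. The initiator caspase Casp9 was at 62.2, 68.9, 65.6, 71.3 and 65.3 CPM in the controls and 60, 61.4, 57.2, 62.7 and 53.1 CPM in the exposed mice, with mouse 4 within the control range and the others below it (−0.18, −0.31 to −0.044). Diablo, which releases caspases from their inhibitors, differed by −0.21 (−0.38 to −0.041) and the pore-forming Bak1 by −0.12 (−0.22 to −0.013), while the related Bax differed by −0.074 (−0.18 to 0.037). Of 37 mitotic cell cycle genes 15 were positive (median −0.019; −0.067 without control 7 to 0.037 without exposed mouse 1). The inhibitor Cdkn2a was the one at an unadjusted p under 0.05, at 0.683, 0.754, 0.585, 0.786 and 0.467 CPM against 0.309, 0.305, 0.184, 0.444 and 0.342 CPM (−1.04, −1.64 to −0.43), with no overlap but under 1 CPM in every mouse.

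Of the lists described, the lowest median belonged to MHC class II, the surface complex by which macrophages, dendritic cells and B cells show peptides to T cells. Its genes are read together through promoter elements called the X and Y boxes, at which the co-activator Ciita is recruited. Promoters of 4 of the 7 listed genes were matched by symbol, with the 120 bases before the start site shown for 3 of them because their genes had like differences (RefSeq, GRCm38.p6, 5′ to 3′ on the strand of the gene). Capitals mark the letters CTGATTGG, a Y box searched on both strands (reverse complement CCAATCAG) in the 250 bases before the start, where 1258 of 32851 RefSeq promoters (3.83%) hold it.
H2-Aa, chr17:34287824-34287943, minus strand: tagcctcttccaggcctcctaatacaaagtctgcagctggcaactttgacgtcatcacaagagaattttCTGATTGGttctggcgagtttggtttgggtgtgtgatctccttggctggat
H2-Eb1, chr17:34305747-34305866, plus strand: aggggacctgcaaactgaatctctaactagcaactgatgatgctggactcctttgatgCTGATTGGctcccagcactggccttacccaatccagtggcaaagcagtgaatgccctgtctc
H2-DMb1, chr17:34153071-34153190, plus strand: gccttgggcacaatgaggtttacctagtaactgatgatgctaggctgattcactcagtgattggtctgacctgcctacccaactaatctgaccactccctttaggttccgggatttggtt
The match begins 51 bases before the start of H2-Aa and 62 bases before that of H2-Eb1. H2-DMb1 does not hold these letters in the window searched, nor does either start of H2-DMa.

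All 7 MHC class II genes were negative, 5 of them at an unadjusted p under 0.05 (over all genes 2.59% were lower), with a median of −1.04 (−1.25 without exposed mouse 5 to −0.90 without control 8), and no gene's groups were apart. H2-Aa, the alpha chain of I-A whose promoter is printed above, was at 18.5, 35.8, 44.7, 42.2 and 14.4 CPM in the controls and 17.0, 13.2, 11.0, 10.9 and 23.4 CPM in the exposed mice. Controls 7, 8 and 9 were high, controls 6 and 10 lay within the exposed range, and the difference was −1.05 (−1.79 to −0.30). Its partner chain H2-Ab1 was at 13.2, 28.9, 35.3, 36.8 and 11.7 CPM against 11.8, 10.8, 7.47, 7.20 and 18.5 CPM (−1.17, −1.997 to −0.35). Ciita was at 1.11, 1.77, 2.70, 2.61 and 1.30 CPM against 1.39, 0.870, 0.643, 0.579 and 0.842 CPM (−1.13, −1.85 to −0.41), with the same 3 controls high.

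The invariant chain Cd74, which escorts class II molecules, differed by −1.04 (−1.81 to −0.27), H2-Eb1 by −0.93 (p = 0.103), H2-DMb1 by −0.97 (p = 0.0444) and H2-DMa by −0.55 (p = 0.0763). At 10 mg/L in experiment 2 the 7 genes were all positive, with a median of 0.41, and the controls there were at 24, 14.7, 14.6, 15.2 and 16.5 CPM for H2-Aa (each experiment scaled on its own). Those controls lay within or just above the range of the mice at 500 mg/L and below controls 7 to 9 of experiment 1. The difference between the effects of the doses for H2-Aa was −1.35 (edgeR adjusted p = 0.834).

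Of 17 tested leukocyte and macrophage markers 2 were positive and 0 were at an unadjusted p under 0.05, with a median of −0.29 (−0.46 without exposed mouse 1 to −0.17 without control 7). The macrophage complement genes C1qb and C1qc differed by −0.74 (−1.54 to 0.056) and −0.69 (−1.55 to 0.16), and by −0.43 and −0.33 without control 7. The summed level of the 17 tested of 18 markers ran from 99.9 to 271 CPM in the controls and from 69.8 to 165 CPM in the exposed mice; the neutrophil gene S100a8 was not among the tested genes. The score of these markers was −0.46, 0.62, −0.11, 0.30 and −0.35 in controls 6 to 10 and 0.090, −0.65, −0.86, −0.35 and 0.21 in exposed mice 1 to 5, so the groups overlapped. In the controls, the MHC class II score was −0.54, 0.22, 0.61, 0.53 and −0.81. Controls 7 and 9 were above 0 on both scores, controls 6 and 10 were below 0 on both, and control 8 was split. In exposed mice 1 to 5 the class II score was −0.72, −0.91, −1.22, −1.27 and −0.40. The part of leukocyte number in the class II values was not tested.

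Immediate early genes, induced within minutes of a stimulus such as handling of tissue, had a median of 0.84 (−0.091 without exposed mouse 5 to 1.09 without control 8), with 23 of 24 positive and 4 higher at an unadjusted p under 0.05 (over all genes 2.28%). Fos was at 47.6, 52.3, 122, 31.3 and 51.7 CPM in the controls and 66.7, 70.6, 69.4, 24.8 and 1577 CPM in the exposed mice. Exposed mouse 5 alone stood above all others, and the difference went from 2.57 (0.15 to 4.98) to −0.076 without it. Klf6, a zinc-finger factor, differed by 0.61 (0.021 to 1.19; 0.38 without exposed mouse 5). Without exposed mouse 5, Fosb went from 3.49 to −0.55, and the antiproliferative Btg2, which is also a p53 target, from 1.29 to −0.025. Fosl1 had the smallest p of the 4 and a control mean of 0.051 CPM. Its difference went from 2.60 (0.19 to 5.00) to 0.65 without exposed mouse 1. The list score was 0.58, −0.19, −0.01, −0.40 and 2.27 in exposed mice 1 to 5 and −0.29 to 0.53 in the controls. In experiment 2 the list was also higher at 10 mg/L, with 22 of 24 positive and a median of 0.71. There Fos differed by 2.17, Fosb by 3.18 and Btg2 by 0.88, and none passed (edgeR adjusted p = 0.625, 0.604 and 0.604).

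Red cell transcripts gave 5 positive of 5 tested (8 listed), 2 of them (Alas2 and the globin Hba-a2, 1.93) at an unadjusted p under 0.05 (over all genes 2.28% were higher), with a median of 1.11 (0.72 without exposed mouse 4 to 1.34 without control 6). Hba-a2 was barely detected, with means of 0.073 CPM in the controls and 0.28 CPM in the exposed mice. Its lowest value was 0 in both groups. The heme enzyme Alas2 was at 4.23, 3.47, 3.13, 4.02 and 7.65 CPM in the controls and 5.56, 27.0, 3.75, 8.13 and 7.67 CPM in the exposed mice, with mouse 2 the highest, and went from 1.22 to 0.48 (p = 0.146) without that mouse. Hba-a1, whose reads can be shared with its near-identical copy Hba-a2, was at 26.8, 19.9, 7.5, 12.4 and 9.92 CPM against 23.8, 11.6, 13.0, 68.9 and 48.0 CPM (1.11, −0.047 to 2.27; 0.66 without exposed mouse 4). The summed level of the list was 17.2 to 63.0 CPM in the controls and 30.8 to 133 CPM in the exposed mice, and Slc4a1 and Ahsp were among the listed genes that were not tested.

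Cumulus and ovulatory genes gave 8 positive of 15 with a median of 0.14 (−0.051 without exposed mouse 2 to 0.27 without control 8). The cell-cycle regulator Rgcc was at 41.6, 53.3, 58.1, 53.7 and 37.2 CPM in the controls and 25.9, 34.9, 40.0, 25.4 and 33.3 CPM in the exposed mice (−0.61, −0.96 to −0.27); exposed mouse 3 lay within the control range. The endothelin Edn2, which is induced at ovulation, was at 7.73 CPM in exposed mouse 1 and at most 0.712 CPM in the other 9 mice, so that its difference went from 3.02 to 0.72 without that mouse. Of 14 stromal fibroblast markers 3 were positive (median −0.029; −0.25 without exposed mouse 5 to 0.16 without control 7), and Dpt (−0.93, −1.79 to −0.060) and Clec3b (−0.92, −1.80 to −0.037), genes of matrix fibroblasts, were lower at an unadjusted p under 0.05 (over all genes 2.59%). Both were at low levels, with means of 1.58 and 0.90 CPM in the controls and 0.83 and 0.48 CPM in the exposed mice. Both were positive at 10 mg/L in experiment 2 (0.41 and 0.89). The summed level of the 14 markers was 2281 to 4417 CPM in the controls and 1991 to 4142 CPM in the exposed mice.

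**Figure D5:**
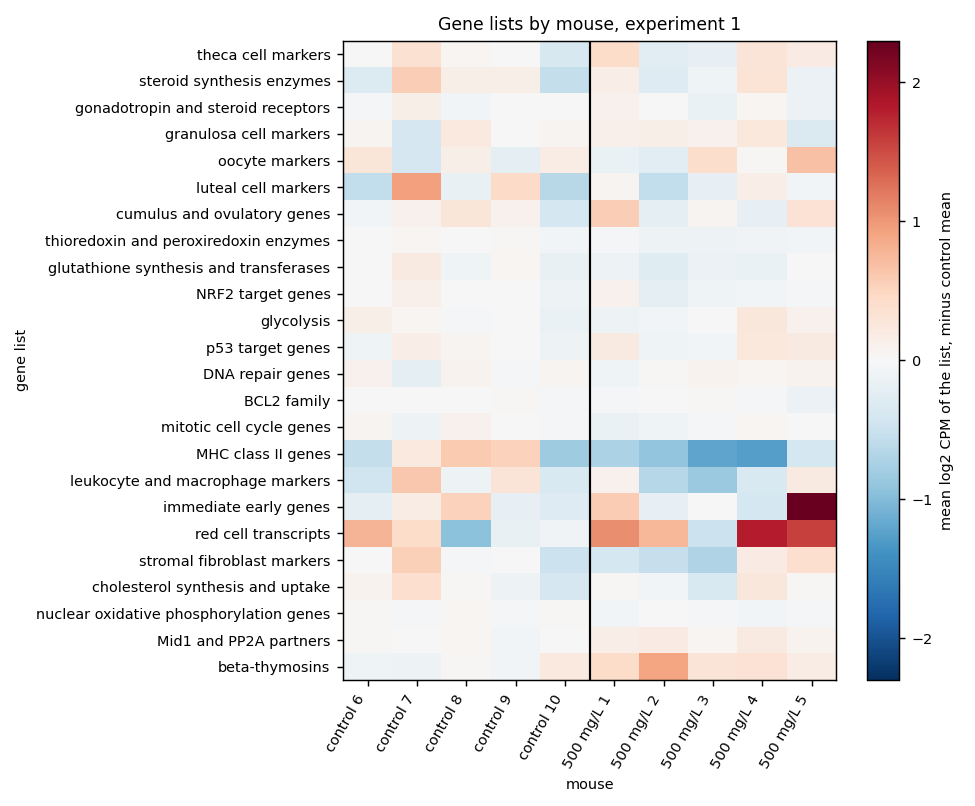
Colour gives the mean log2 CPM of each of 24 gene lists (rows) in each of the 10 mice (columns; controls left of the line), minus the mean of the 5 controls. MHC class II is low in all 5 exposed mice and in controls 6 and 10, the luteal row is high in controls 7 and 9, and the immediate early row is high in exposed mouse 5.

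The spread between mice was compared over all tested genes. The root mean square distance of a mouse from the mean of the others of its group, in log2 CPM, was 0.536 ± 0.0496 in the controls and 0.541 ± 0.0217 at 500 mg/L (SD, n = 5 each). The difference of 0.00525 was within the spread (exact two-sided permutation test over 252 splits, p = 0.81, where the smallest possible p is 0.00794), and its sign turned when control 6, 8, 9 or 10 was left out. Over the 24 described lists and 14 others, 671 of 691 listed genes were tested. Of these 45 (6.71%) were at an unadjusted p under 0.05, against 4.87% of all genes, and 0 passed the adjusted test.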

How the data were processed

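Stranded, poly(A)-selected libraries were read for 101 cycles from 1 end, per the labels. The submitters' processing notes name FastQC 0.11.8, Salmon 1.2.0, edgeR, limma and R 4.1.2 and the build GRCm39; for the annotation and the summing to genes, tools were not given in the sources used here. Estimated counts per gene, not scaled, were deposited by the authors, in which near-identical genes share reads; they were rounded to whole numbers. The authors' deposited table of comparisons gives signed linear fold changes (a score at or beyond 1 and −1) and raw and adjusted p-values, used here beside the values computed from the counts.

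Genes kept by the authors were tested in R 4.3.3 with edgeR 4.0.16 on the 10 libraries of experiment 1 (TMM, robust quasi-likelihood F-test, two-sided, Benjamini-Hochberg over 18169 genes). Experiment 2 was fitted alone in the same way, and the difference between doses in 1 model of all 20 libraries with a mean per group and experiment. Spread between mice was tested by exact permutation. List scores are means of log2 CPM (prior count 2). Pairs of libraries of a group differed by 31.0 to 147 in chi-square per gene, so none was a copy. Scripts were tested on simulated data. Alternatives were DESeq2 1.42.0 (test or size factors), limma 3.58.1 (voom or trend), upper-quartile factors, 3 other filters, all 20 libraries, pooled controls and each mouse left out. Transcript lengths are from GENCODE vM21 and promoters from RefSeq GRCm38.p6, matched by symbol; this is another build than the authors', so no gene coordinates of theirs are given.

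Genes named were, per direction, the 12 with the smallest p among genes of at least 2 CPM whose groups did not overlap (no predicted genes), the members of each described list that ranked first by p (at most 4), and genes fixed by name, among them Mid1, Tmsb15b1, Star, Cyp17a1, Gapdh and Cdkn1a; further list members are given for their role, and some are not reported here. The genes, lists and rule were chosen with earlier results of these data known.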

Additional observations from a re-analysis of the deposited data

Results flagged for a closer look

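In 294 groups of 5 mice (each named gene and each described list, in controls and exposed mice apart), 1 mouse stood apart from the other 4 by Dixon's gap in 19 groups (6.46%); chance flags about 1 in 20 groups. Exposed mouse 5 stood apart for Fos at 1577 CPM, Fosb at 472 CPM, Btg2 at 249.6 CPM and a granulosa marker score of −0.33. Control 7 stood apart for Gsta1 at 3.42 CPM, Ccnd3 at 78.8 CPM, Tyrobp at 7.86 CPM and a receptor score of 0.13. Control 8 stood apart for Fos at 122 CPM and Fosb at 29.6 CPM. Exposed mouse 1 stood apart for Edn2 at 7.73 CPM and Fosl1 at 1.30 CPM, exposed mouse 2 for Alas2 at 27.0 CPM and Gpi1 at 263 CPM, exposed mouse 3 for Fdps at 118 CPM, and exposed mouse 4 for Fdxr at 197 CPM and Bax at 58.8 CPM. Control 9 stood apart for Bak1 at 81.7 CPM and control 10 for Alas2 at 7.65 CPM.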

How the results depend on the processing

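No gene was called under 2 other scalings, 3 other filters, limma-voom, limma-trend or all 20 libraries with a mean per group and experiment. DESeq2's test called 11 higher and 8 lower genes, and the controls of both experiments gave 2 higher (Mid1 and Tmsb15b1) with 783 higher and 780 lower at an unadjusted p under 0.05; the cause was not tested. Leaving out each mouse in turn gave 0 to 1 higher call (Gm52481 without exposed mouse 3), 112 to 185 genes above and 139 to 202 below all controls, since fewer mice overlap less, and a difference in spread of −0.0274 to 0.0308, negative without control 6, 8, 9 or 10. Among values of named genes under alternatives, 2409 kept their sign and side of the threshold, 15 passed it and 24 turned sign: Hsd3b1 (−0.028 with voom, −0.022 with trend, −0.094 to 0.10 leaving out mice), Esr2 (0.0038 with upper-quartile factors, 0.00045 with edgeR's filter, 0.025 with pooled controls, −0.16 to 0.17 leaving out mice), Gapdh (−0.019 to 0.076 leaving out mice), Cdkn1a (−0.12 with pooled controls, −0.000069 to 0.45 leaving out mice), Insl3 (−0.45), Kit (−0.065) and Gpi1 (−0.027) with pooled controls, and, with each mouse left out, Btg2 (−0.025 to 1.54), Fos (−0.077 to 2.98) and Fosb (−0.55 to 4.77), negative without exposed mouse 5, and Lum (−0.63 to 0.16), positive without control 7. No paired analysis was possible because the controls are replicates 6 to 10 and the exposed mice replicates 1 to 5, so no number is shared. Low counts widened the intervals: their median half-width was 0.34 over all genes and 0.24 at 2 CPM or more.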

Other observations

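Of the lists not described above, insulin-like growth factor genes had 10 of 15 positive and a median of 0.16, and the ligands, receptors and mediators of inhibin, activin, BMP and AMH had 15 of 32 positive and a median of −0.0029, each with 0 at an unadjusted p under 0.05. Endothelial markers had 8 of 16 positive (0.0094) and smooth muscle and pericyte markers 5 of 16 (−0.073), also with 0. Among 18 heat shock chaperones 7 were positive, and the mitochondrial chaperonin Hspe1 (−0.22, p = 0.0161) and the co-chaperone Bag3 (−0.22, p = 0.0359) were lower at an unadjusted p under 0.05. In the unfolded protein and integrated stress response 9 of 24 were positive (−0.044), with the sensor target Ddit3 at 0.094 (p = 0.59). Proteasome subunits had 9 of 25 positive (−0.022), interferon-stimulated genes 8 of 22 (−0.067) and extracellular matrix genes 14 of 25 (0.021), each with 0 at an unadjusted p under 0.05. In Hedgehog and Notch signalling 11 of 22 were positive, and Rbpj, the DNA-binding partner of Notch, was higher at an unadjusted p under 0.05 (0.17, p = 0.0283).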
